A study of Mus musculus with 27 samples.

Results

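Chemokines are small secreted proteins that guide migrating leukocytes, and activated CD8 T cells make several of them alongside their cytokines. The 7 genes described here, Ccl3, Ccl4, Ccl5, Xcl1, Ccl1, Ccl9 and Cxcl10, were chosen by symbol from the 35275 genes of the expression tables, as chemokines that CD8 T cells are known to produce. P14 CD8 T cells, whose transgenic T cell receptor recognises the gp33 peptide of LCMV, were compared between WT, lin28Tg and let-7Tg mice. Each genotype was sequenced as naive cells, after 12 h of activation and as day 5 CTLs, with 3 biological replicates in each of the 9 groups and 27 libraries in all.

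The mice were young adults of either sex. According to the methods the P14+ lin28Tg and P14+ let-7Tg lines were on a Rag2-/- background, which prevents other T and B cells from forming. For a reporter cross, the methods list P14+ WT mice together with these lines. The background of the WT mice that were sequenced is not stated separately. Lin28 blocks the maturation of let-7 miRNAs, so that lin28Tg cells lack them. The promoter of the lin28 transgene is not given in the sources used here. The let-7Tg carries a doxycycline-inducible let-7g at the Col1a1 locus. Doxycycline was given in the drinking water to controls as well as transgenic mice, although the labels list no treatment for naive cells, and it was in the culture medium of every activated group at 2 µg/mL. For 12 h activation, cells from lymph nodes and spleens received anti-CD3 at 2 µg/mL and anti-CD28 at 5 µg/mL. CTLs were instead started with irradiated splenocytes and anti-CD3 at 2 µg/mL, received IL-2 at 100 U/mL after 48 h and were grown for 3 more days. The stages thus differ in stimulus, culture and table as well as in time, and these cannot be told apart.

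Ccl3, Ccl4 and Ccl5 are inflammatory chemokines that draw monocytes, dendritic cells and other effector T cells toward the cells that secrete them. Xcl1 attracts the cross-presenting dendritic cells that carry Xcr1, and Ccl1 acts through Ccr8. Ccl9 is a ligand of Ccr1, and Cxcl10, an interferon-induced chemokine, recruits T cells that carry Cxcr3. T cells induce such genes through factors of the NFAT, AP-1 and NF-kB families, while let-7 miRNAs silence mRNAs that pair with their seed.

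The sequence of let-7g, the miRNA encoded by the transgene, is shown first because its seed was used to search for let-7 target sites. Bases 2 to 8 are in capitals, and the sequence is from RefSeq, GRCm38.p6, chr9:106178846-106178867, plus strand.
let-7g-5p: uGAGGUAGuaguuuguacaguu
Its complement of 7 bases, CTACCTC, was searched in the 3′ UTR of each chemokine, taken from the longest coding transcript of GENCODE M21. None of the 7 UTRs held it, against 8.01% of the 20693 genes with a 3′ UTR. The median UTR of those genes has 798 bases, and all of the 7 except Ccl9 have shorter ones, which leaves less room for a match. Other forms of let-7 site were not searched. The AU-rich pentamer ATTTA, the core of elements that mark cytokine mRNAs for rapid decay, was present in 5 of the 7, against 61.6% of all genes. Ccl3 had 5 copies in 409 bases, or 12.2 per kb, Xcl1 had 1 in 141 bases (7.09 per kb) and Ccl4 had 2 in 302 bases (6.62 per kb), compared with 1.94 per kb over all UTRs. Cxcl10 had 2 copies in 729 bases and Ccl9 had 5 in 2465 bases, which is 2.74 and 2.03 per kb, and Ccl5 and Ccl1 had none in 199 and 167 bases. The 30 bases of the Ccl3 UTR from base 157 to base 186 hold 2 of its copies, in capitals.
Ccl3 UTR: ttATTTAATTTAatcctattggtttaatac

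RefSeq promoters, covering 250 bases before to 50 bases after the start of the gene, were found for 5 of the 7 genes. Ccl4 and Ccl5 had none. All 5 genes with a promoter were called between lin28Tg and at least 1 other genotype in naive or 12h-activated cells. In these comparisons 8.48% to 44.2% of all genes were called. Xcl1 and Ccl3 were called against let-7Tg only, and both calls were lost in several alternative fits. The promoters of Ccl3, Ccl9 and Cxcl10 are shown as examples, and capitals mark the motifs found by letters on either strand. They lie on the minus strand of GRCm38.p6 at chr11:83649329-83649628 for Ccl3, chr11:83578587-83578886 for Ccl9 and chr5:92348840-92349139 for Cxcl10.
Ccl3: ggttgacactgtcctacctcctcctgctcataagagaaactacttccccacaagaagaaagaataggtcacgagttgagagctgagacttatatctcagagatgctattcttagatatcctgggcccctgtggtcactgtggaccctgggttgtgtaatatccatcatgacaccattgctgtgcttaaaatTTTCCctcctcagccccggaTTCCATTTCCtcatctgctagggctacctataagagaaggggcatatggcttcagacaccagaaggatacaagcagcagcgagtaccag
Ccl9: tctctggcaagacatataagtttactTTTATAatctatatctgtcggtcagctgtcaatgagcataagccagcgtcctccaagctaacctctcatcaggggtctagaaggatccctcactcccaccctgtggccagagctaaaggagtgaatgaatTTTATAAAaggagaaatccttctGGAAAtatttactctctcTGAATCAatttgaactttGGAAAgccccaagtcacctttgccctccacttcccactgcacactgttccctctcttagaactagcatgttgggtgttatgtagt
Cxcl10: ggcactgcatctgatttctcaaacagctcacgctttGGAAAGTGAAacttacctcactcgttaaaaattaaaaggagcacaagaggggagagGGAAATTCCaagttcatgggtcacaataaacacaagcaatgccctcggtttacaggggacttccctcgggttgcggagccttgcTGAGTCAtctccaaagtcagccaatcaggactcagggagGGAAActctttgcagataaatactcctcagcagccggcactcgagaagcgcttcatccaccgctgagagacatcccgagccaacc
The NFAT core GGAAA, present in 61.3% of all 32851 promoters, was found in all 5, with 3 matches in Cxcl10 and Ccl1, 2 in Ccl3 and Ccl9 and 1 in Xcl1. The AP-1 site TGANTCA, in 7.81% of promoters, lay 53 bases upstream of the start in Ccl9 and 74 bases upstream in Cxcl10. Cxcl10 was the only one of the 5 with the kB site GGANTTTCC (1.25% of promoters), 158 bases upstream and overlapping an NFAT core. The ISRE core GAAANNGAA, bound by interferon-activated factors and found in 8.56% of promoters, was present once each in Cxcl10, Ccl1 and Ccl3 and overlapped an NFAT core in each of them. Ccl9 alone held the letters of the TATA box, TATAAA (13.6% of promoters). Its 3 matches began 224, 94 and 92 bases upstream, those at 94 and 92 overlapping on opposite strands. The T-box core TCACACCT (1.28%) was in none. These are matches of letters and show no binding.

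Levels are given as FPKM, the fragments of a gene scaled to its length and to the counted reads of the library, so that they can be compared between genes. Sequencing depth was 13862706 to 23591069 counted reads per library, at which 0.212 to 0.361 FPKM stands for 10 reads of a 2 kb gene, and lower values carry large counting error. The labels were checked with Lin28b, at 9.94 to 67.9 FPKM in the 9 lin28Tg libraries and at most 0.059 in the other libraries, and with Col1a1, the locus of the let-7 transgene, at 9.06 to 62.8 FPKM in let-7Tg and at most 4.93 elsewhere. The summed FPKM of 6 CD8 T cell markers was 2775 to 3375 in naive, 740.1 to 913.6 in 12h-activated and 1648 to 2093 in day 5 libraries, with overlapping ranges in WT and lin28Tg at each stage. At 12 h the let-7Tg sums (904.8 to 912.3) lay above those of lin28Tg (740.1 to 870.8). Myeloid markers stood apart in naive lin28Tg cells and are given beside the chemokine results.

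Activation for 12 h placed Xcl1, Ccl3 and Ccl4 among the most abundant mRNAs of CD8 T cells (as seen in the plot of levels in 27 libraries). Xcl1 FPKM was 2156, 5429 and 2892 in the 3 WT libraries, 5141, 4561 and 3325 in lin28Tg and 2005, 3254 and 2189 in let-7Tg. By FPKM it ranked 3rd to 34th of all genes in WT, 3rd to 8th in lin28Tg and 7th to 46th in let-7Tg libraries. In the same cells Ccl3 FPKM was 996.4, 2219 and 896.4 in WT, 2717, 2128 and 1901 in lin28Tg, and 1100, 1173 and 985.9 in let-7Tg. Ccl4 FPKM was 772.6, 1666 and 725.0 in WT, 1464, 1014 and 1206 in lin28Tg, and 1062, 1674 and 1153 in let-7Tg. WT replicate 2 was the highest WT library for all of these genes, and the WT range overlapped that of lin28Tg for each of them.

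**Figure D1:**
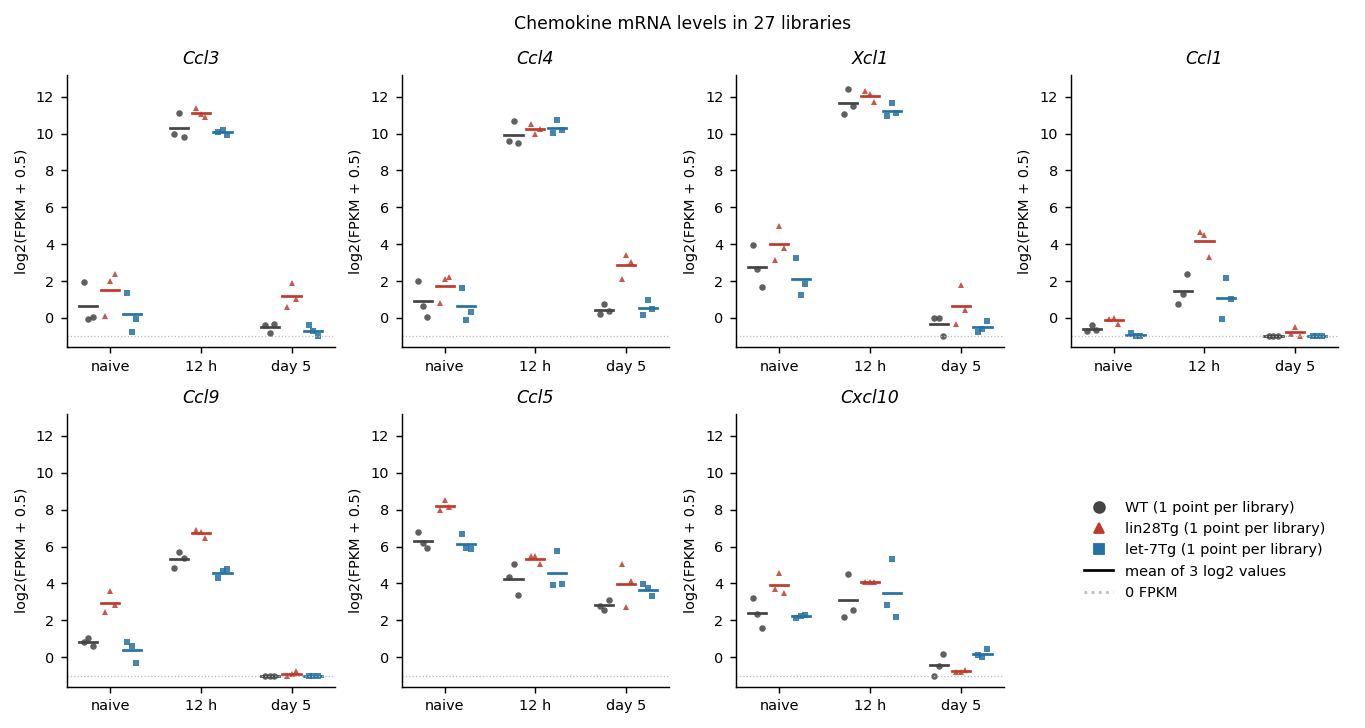
Each panel plots log2(FPKM + 0.5) of a chemokine in the 27 libraries by stage, with a point per library coloured by genotype, a line at the mean of the 3 log2 values and a dotted line at 0 FPKM. Ccl3, Ccl4, Xcl1, Ccl1 and Ccl9 peaked at 12 h in every genotype, and Ccl5 was highest in naive cells. The lin28Tg points lie above those of WT for Ccl5, Ccl9, Cxcl10 and Ccl1 (near 0 FPKM) in naive cells. The same holds for Ccl1 and Ccl9 at 12 h, and for Ccl3 and Ccl4 on day 5.

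Together the 7 chemokines accounted for 0.247% to 0.576% of all counted reads in the 12h-activated WT libraries, 0.418% to 0.6% in lin28Tg and 0.264% to 0.381% in let-7Tg. In naive cells the share was 0.00413% to 0.0282% and on day 5 it was 0.000456% to 0.0023%. At 12 h, Xcl1, Ccl3 and Ccl4 supplied most of these reads in every library, as the bars of the share of reads show.

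**Figure D2:**
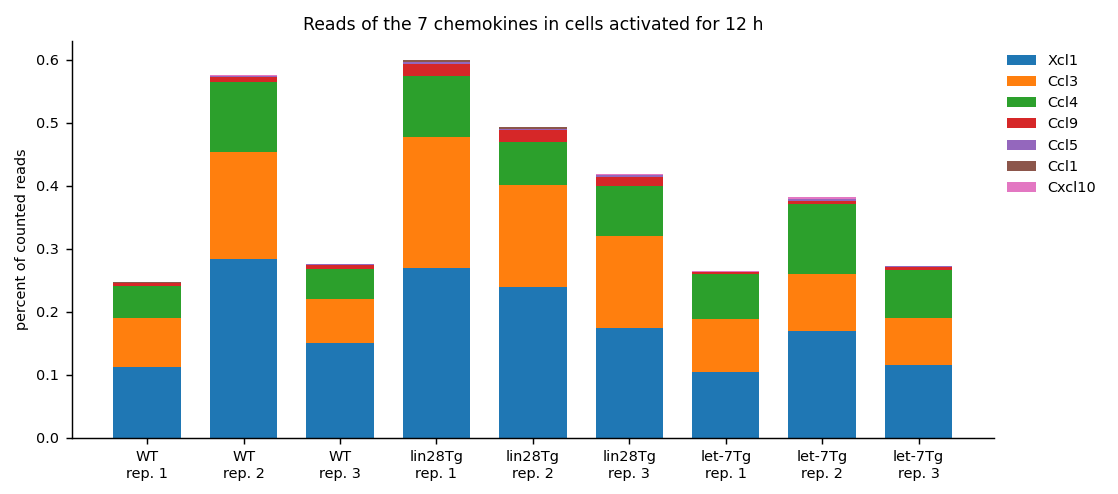
Stacked bars give the percent of counted reads from each chemokine in the 9 libraries of cells activated for 12 h, with a bar per replicate. WT replicate 2, at 0.576%, stands within the lin28Tg range of 0.418% to 0.6%, while the other WT bars lie at 0.247% and 0.276%.

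In WT cells 6 of the 7 chemokines changed with activation, and all 7 were lower in CTLs than after 12 h. On the log2 scale, Ccl3 was higher at 12 h than in naive WT cells by 9.86 ± 0.54 (SE), Ccl4 by 9.25 ± 0.47 and Xcl1 by 9.14 ± 0.58, with adjusted p of 3.98e-13, 1.02e-13 and 3.59e-12 in limma. Ccl9 rose by 4.71 ± 0.26 and Ccl1 by 2.22 ± 0.40, whereas Ccl5 fell by 1.78 ± 0.47 (adjusted p = 0.00182). Cxcl10 did not pass the test in WT (0.94 ± 0.58, adjusted p = 0.151). These 6 of 7 chemokines stand beside 71.0% of the 14453 tested genes called in either direction, so that a call as such is common between these stages.

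In lin28Tg the same comparison called 6 of 7 (73.5% of all genes), again with Ccl5 as the gene that fell, by 2.64 ± 0.47. Let-7Tg cells had all 7 called (69.3% of all genes), with Ccl5 lower by 1.39 ± 0.47 and Cxcl10 higher by 1.45 ± 0.58 (adjusted p = 0.0299). The Cxcl10 call in let-7Tg rested on replicate 2 of the 12h-activated cells, at 40.2 FPKM against 6.69 and 4.04 in the other libraries, and was 0.56 with adjusted p = 0.329 without it. It was also lost, at 1.39 to 1.48, without any of the naive let-7Tg libraries (adjusted p of 0.0541 to 0.0695). Leaving out let-7Tg naive replicate 1 or 12 h replicate 1 or 3 gave the fall of Ccl5 an adjusted p of 0.0633 to 0.0715.

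By day 5 most of the chemokine mRNAs were close to 0 FPKM. Between 12 h and day 5, all 7 fell in WT and in lin28Tg, where 67.5% and 66.3% of all genes were called, and 6 of 7 fell in let-7Tg (67.1%). The log2 difference of Xcl1 was -12.15 ± 0.58 in WT, -11.49 ± 0.58 in lin28Tg and -11.84 ± 0.58 in let-7Tg, and its level reached at most 0.51, 3.0 and 0.387 FPKM. No read of Ccl9 or of Ccl1 was counted in any WT or let-7Tg CTL library. Against a floor of 3 reads per library, Ccl9 was at least 426.8-fold lower in CTLs than in 12h-activated WT cells and at least 275.6-fold lower in let-7Tg, and Ccl1 was at least 17.7-fold lower in WT. Ccl5 in let-7Tg was the exception, with a difference of -1.01 ± 0.47 (adjusted p = 0.0642), and its fall in lin28Tg (-1.44 ± 0.47, adjusted p = 0.0103) was not called without day 5 replicate 2 (-0.82, adjusted p = 0.12).

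CTLs were also compared with the naive cells from which they start. Ccl5, Xcl1, Ccl9 and Cxcl10 were lower in CTLs in each genotype, which is 4 of 7 in WT (65.4% of all genes called) and in let-7Tg (62.6%). In lin28Tg 5 of 7 were called (68.0%), the 4 named genes lower and Ccl4 higher by 1.28 ± 0.47 (adjusted p = 0.0191). The Ccl4 values overlapped between the stages, and the call did not hold without naive replicate 1 (0.84, adjusted p = 0.141) or day 5 replicate 2 (1.07, adjusted p = 0.0739). The log2 difference of Ccl5 was -3.39 ± 0.47 in WT, -4.07 ± 0.47 in lin28Tg and -2.39 ± 0.47 in let-7Tg.

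Naive lin28Tg cells contained more Ccl5, Ccl9 and Cxcl10 mRNA than naive WT cells. Of the 6 chemokines with enough reads to be tested, these 3 passed, all higher in lin28Tg, and 34.9% of the 13277 genes tested were called in either direction. Ccl1 was not tested, at 0.421 ± 0.118 FPKM (SD, n = 3) in lin28Tg, 0.17 ± 0.0797 in WT and 0.0198 ± 0.0344 in let-7Tg naive cells. Ccl5, a chemokine that resting memory CD8 T cells also store as mRNA, was 109.1, 71.5 and 61.3 FPKM in WT, 251.9, 373.4 and 283.9 in lin28Tg and 103.0, 59.9 and 58.7 in let-7Tg. Every lin28Tg library lay above every other library. The difference from WT was 1.87 ± 0.26 on the log2 scale, a 3.65-fold higher level (adjusted p = 0.000948).

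Ccl9 FPKM in naive cells was 1.27, 1.54 and 1.04 in WT, 5.0, 11.6 and 6.56 in lin28Tg, and 1.25, 1.05 and 0.297 in let-7Tg. The lin28Tg libraries were again above all others, by 2.09 ± 0.34 against WT (4.25-fold, adjusted p = 0.00216). Cxcl10 FPKM was 8.61, 4.61 and 2.5 in WT, 12.5, 22.9 and 10.6 in lin28Tg, and 3.83, 4.23 and 4.39 in let-7Tg. Here too no value overlapped, with a difference from WT of 1.48 ± 0.38 (2.78-fold, adjusted p = 0.0146). Fitted in 1 model of all 27 libraries, Cxcl10 missed the threshold (1.49, adjusted p = 0.0596).

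Ccl3, Ccl4 and Xcl1 were low and scattered in naive cells. Ccl3 FPKM was 3.31, 0.462 and 0.554 in WT and 0.589, 3.54 and 4.64 in lin28Tg, with 0.81 ± 0.73 between them (adjusted p = 0.423). For Ccl4 the difference was 0.77 ± 0.59 (adjusted p = 0.337) and for Xcl1 it was 1.17 ± 0.67 (adjusted p = 0.204). Ranges of WT and lin28Tg overlapped for these 3 genes, and WT replicate 1 was the highest WT library for each.

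Against naive let-7Tg cells, lin28Tg cells had 4 of the 6 tested chemokines higher, where 44.2% of all genes were called. Ccl5 differed by 2.05 ± 0.26, Ccl9 by 2.58 ± 0.34 and Cxcl10 by 1.69 ± 0.38 (adjusted p of 0.000314, 0.000433 and 0.00573). Xcl1, at 8.3, 31.8 and 13.5 FPKM in lin28Tg and 8.88, 1.9 and 3.03 in let-7Tg, differed by 1.87 ± 0.67 (adjusted p = 0.0454). The Xcl1 call was lost when any of 5 libraries was left out, naive WT replicate 2, lin28Tg replicate 2 or 3, or let-7Tg replicate 2 or 3 (adjusted p of 0.0641 to 0.148). Between let-7Tg and WT none of the 6 was called by limma, none had an unadjusted p under 0.05, voom called none, and 0.934% of all genes were called. The 2 comparisons with lin28Tg use the same lin28Tg libraries.

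Markers of myeloid cells, which also make Ccl9 and Cxcl10, differed between the same groups. Of 18 myeloid markers 17 were tested and all 17 were higher in naive lin28Tg than in WT cells, with a median log2 difference of 2.42 against -0.04 over all genes. Their summed FPKM ranged from 361.7 to 623.9 in WT, from 1371 to 4312 in lin28Tg and from 312.5 to 659.0 in let-7Tg, and none of the 18 was at 0 in all 3 libraries of a group. C1qb, a complement gene of macrophages, was 73.8 ± 61.5 FPKM in lin28Tg and 2.21 ± 0.593 in WT. Within lin28Tg, replicate 2 had the highest myeloid sum and the highest Ccl5, Ccl9 and Cxcl10, as the plot of naive libraries shows. Ccl5 and Ccl9 followed the order of the sum in the other lin28Tg libraries, but Cxcl10 did not. It was 12.5 FPKM in replicate 1 (sum 1371) and 10.6 in replicate 3 (sum 2391). Among let-7Tg libraries replicate 1 had the highest sum (659.0), Ccl5 and Ccl9 but the lowest Cxcl10 (3.83). Without lin28Tg replicate 2 Ccl5 was still higher than in WT by 1.72 (adjusted p = 0.00342), Ccl9 by 1.78 (adjusted p = 0.00558) and Cxcl10 by 1.17 (adjusted p = 0.0485). The part of myeloid RNA in these differences was not tested, and in bulk samples fewer cells of a type and less RNA per cell cannot be told apart.

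**Figure D3:**
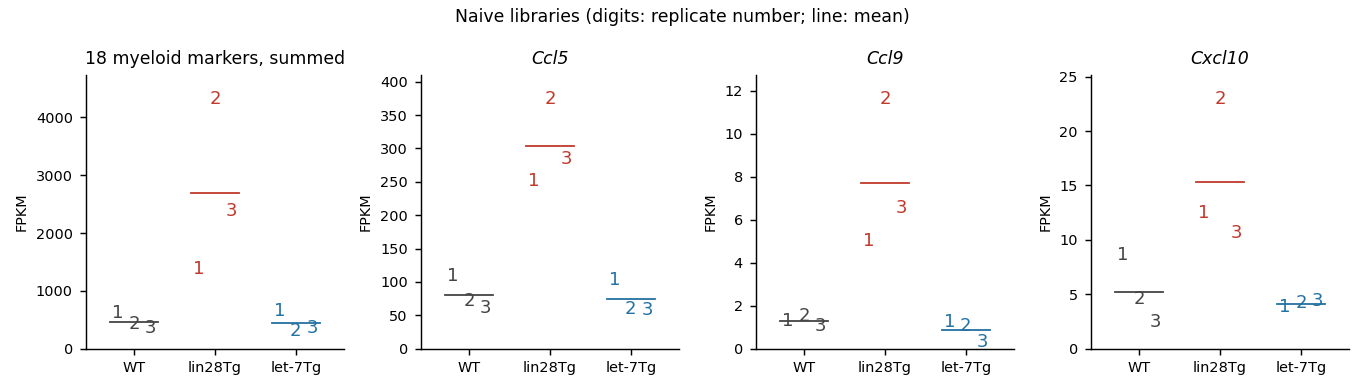
The panels give, from left to right, the summed FPKM of 18 myeloid markers and the FPKM of Ccl5, Ccl9 and Cxcl10 in the 9 naive libraries, each drawn as its replicate number with a line at the group mean. The lin28Tg libraries lie above the others in all 4 panels, and lin28Tg replicate 2 is the highest library in each.

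Other marker lists differed in naive cells as well. Summed erythroid markers were 374.5 to 1494 FPKM in lin28Tg, 113.2 to 217.5 in WT and 1.52 to 35.3 in let-7Tg, with 3 of 4 tested higher in lin28Tg than in WT. NK cell markers, several of which effector CD8 T cells share, were higher in 5 of 8 and summed to 175.3 to 327.8 FPKM in lin28Tg against 82.4 to 150.1 in WT. CD4 cell markers summed to 21.9 to 81.3 FPKM in lin28Tg and 6.93 to 15.9 in WT, with 2 of 3 higher and 1 lower. B cell markers overlapped (359.2 to 425.8 in lin28Tg, 413.6 to 448.1 in WT, with Pax5 at 0 in WT), with 2 of 4 higher and 1 lower, and stromal markers summed to 41.6 to 50.2 FPKM in lin28Tg and 63.7 to 64.9 in WT, with 4 of 6 higher and 1 lower (Pecam1, 38.4 ± 0.176 against 63.1 ± 0.664 FPKM). What these add to the chemokine values was not tested.

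After 12 h of activation, Ccl1 and Ccl9 were higher in lin28Tg than in WT cells. These were 2 of the 7 chemokines, and 8.48% of the 12239 genes tested were called in either direction. Ccl9 FPKM was 28.5, 51.1 and 41.3 in WT, 118.7, 111.0 and 88.1 in lin28Tg, and 19.3, 24.9 and 26.6 in let-7Tg, so that the 3 genotypes did not overlap. The difference between lin28Tg and WT was 2.63-fold (adjusted p = 0.00334), and it passed with any library left out (adjusted p of 0.00283 to 0.0221).

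Ccl1, the ligand of Ccr8, was a minor transcript next to Xcl1 but differed most. Its FPKM was 1.18, 1.98 and 4.71 in WT, 24.8, 22.4 and 9.57 in lin28Tg, and 0.465, 4.05 and 1.55 in let-7Tg. The lin28Tg libraries lay above all others, by 2.68 ± 0.58 against WT, a 6.39-fold difference (adjusted p = 0.0225). Leaving out WT replicate 1 or 2, or lin28Tg replicate 1 or 2, gave 2.31 to 2.59 with an adjusted p of 0.057 to 0.0989.

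Ccl3 differed from WT by 0.81 ± 0.28 (adjusted p = 0.118), Xcl1 by 0.38 ± 0.31 (adjusted p = 0.485) and Ccl4 by 0.30 ± 0.29 (adjusted p = 0.572). For Ccl3 the outcome turned on WT replicate 2, at 2219 FPKM, without which it was 1.21 higher in lin28Tg (adjusted p = 0.00276). Ccl5 FPKM was 19.7, 33.2 and 9.99 in WT, 44.2, 44.4 and 33.1 in lin28Tg and 14.4, 54.7 and 15.1 in let-7Tg, and lin28Tg differed from WT by 1.06 ± 0.50 (adjusted p = 0.225). Cxcl10 was 16.2, 16.4 and 16.6 FPKM in lin28Tg, but 4.11, 22.3 and 5.32 in WT and 6.69, 40.2 and 4.04 in let-7Tg. Its difference from WT of 0.98 ± 0.76 did not pass the test (adjusted p = 0.468). WT replicate 2 and let-7Tg replicate 2 were thus the high libraries of their groups for both Ccl5 and Cxcl10.

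In comparison with let-7Tg, lin28Tg cells at 12 h had 3 of 7 chemokines higher (30.8% of all genes called). Ccl9 differed by 2.15 ± 0.20 (adjusted p = 9.9e-05), Ccl1 by 3.13 ± 0.58 (adjusted p = 0.00405) and Ccl3 by 1.05 ± 0.28, or 2.07-fold (adjusted p = 0.0215). Leaving out lin28Tg replicate 1 or 2 or let-7Tg replicate 3 took Ccl3 over the threshold of 0.05 (adjusted p of 0.0552 to 0.0675), and it was at 0.166 in 1 model of all 27 libraries. For Ccl4, a neighbour of Ccl3 in the genome, the difference was -0.05 ± 0.29 (adjusted p = 0.904). Xcl1 stood at 0.83 ± 0.31 (adjusted p = 0.0691) and passed without WT replicate 1 (0.0489) or WT replicate 2 (0.0182), and Ccl5 at 0.81 ± 0.50 (adjusted p = 0.246) passed without let-7Tg replicate 2 (1.39, adjusted p = 0.0266).

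Between let-7Tg and WT cells at 12 h limma called 0 of 7 chemokines, with 1 at an unadjusted p under 0.05, none by voom, and 3.24% of all genes called. That gene was Ccl9, lower in let-7Tg by 0.76 ± 0.20 without overlap of the values, with an adjusted p of 0.0676. Same-numbered let-7Tg and WT libraries deviated together at 12 h, and with the replicate number as a block 242 genes were called in place of 396, none of the 7 among them (Ccl9 at an adjusted p of 0.0713).

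The myeloid signal was small in these cells and remained higher in lin28Tg. Summed myeloid markers were 48.9 to 103.5 FPKM in WT, 100.8 to 185.9 in lin28Tg and 36.9 to 125.3 in let-7Tg, with 4 of 13 tested higher in lin28Tg than in WT and none of the 18 at 0 throughout a group. Itgam, one of those called, was 1.13 ± 0.165 FPKM in lin28Tg and 0.212 ± 0.153 in WT. WT replicate 2 and let-7Tg replicate 2, the high libraries for Ccl5 and Cxcl10, had the highest myeloid sum of their groups. NK cell markers were 53.9 to 82.9 FPKM in lin28Tg and 31.0 to 54.2 in WT with 1 of 8 higher, and erythroid markers 60.2 to 526.9 and 19.7 to 81.3 with none of 4 called. CD4 marker sums did not overlap, at 3.81 to 4.55 FPKM in lin28Tg and 1.71 to 2.52 in WT, with none of 3 called by limma. B cell marker sums were 84.0 to 107.7 FPKM in lin28Tg and 88.4 to 105.7 in WT with 1 of 3 higher, and stromal sums 3.44 to 6.35 and 5.01 to 10.6. Their part in the 12 h differences was not tested.

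**Figure D4:**
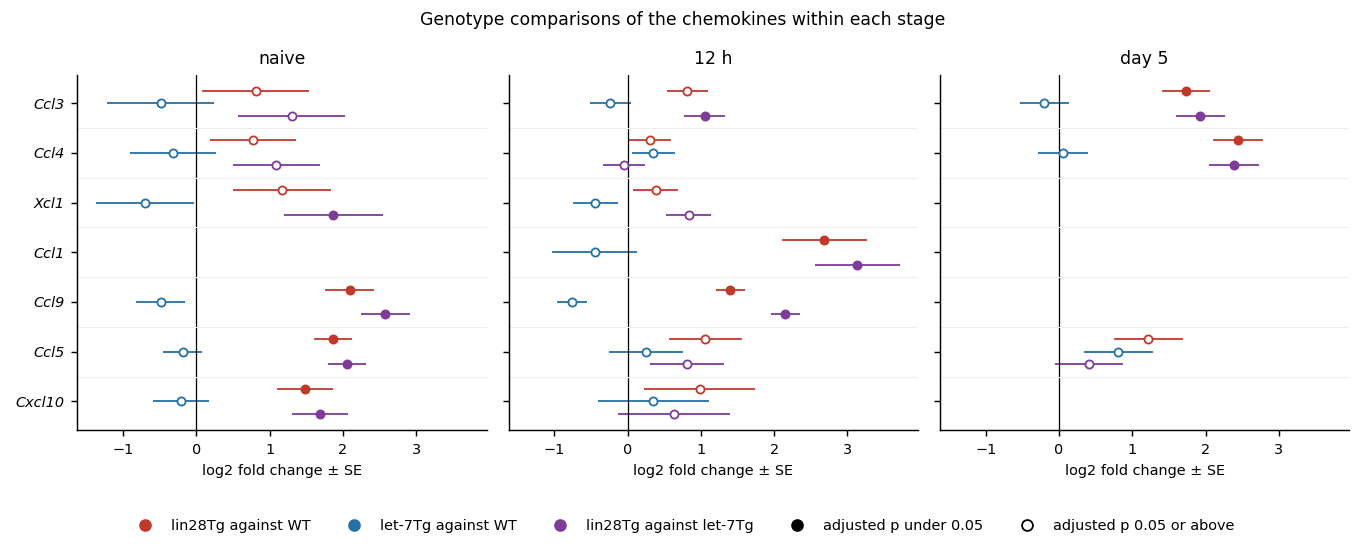
Points give the log2 fold change between genotypes with its standard error for each chemokine, in naive cells, at 12 h and on day 5, filled where the adjusted p is under 0.05. All filled points lie to the right of 0, all of them belong to comparisons with lin28Tg, and genes with too few reads to be tested have no point. The day 5 points of Ccl3 belong to a gene that entered the test only through lin28Tg.

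In day 5 CTLs Ccl4 was higher in lin28Tg than in WT cells. Of the 7 chemokines 3 entered the test, Ccl3, Ccl4 and Ccl5, and limma called Ccl3 and Ccl4, with 4.34% of the 13030 tested genes called. Ccl3 had enough reads for the test only through the lin28Tg libraries, in which it was high, so its call is not counted as a result and its values are given as a description. Ccl4 FPKM was 0.647, 1.21 and 0.822 in WT, 3.86, 10.1 and 7.58 in lin28Tg, and 0.619, 1.47 and 0.92 in let-7Tg. Lin28Tg CTLs were separate from the others, at 5.44-fold the WT level (2.44 ± 0.34, adjusted p = 0.00832). The corresponding read counts were 49, 141 and 111 in lin28Tg and 8, 15 and 10 in WT.

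Ccl3 FPKM was 0.279, 0.0693 and 0.283 in WT, 1.02, 3.28 and 1.53 in lin28Tg, and 0.267, 0.115 and 0.0 in let-7Tg. The reads behind these values were 4, 1 and 4 in WT, 15, 53 and 26 in lin28Tg and 4, 2 and 0 in let-7Tg, so that WT and let-7Tg lay close to the limit of detection. On the log2(FPKM + 0.5) scale lin28Tg differed by 1.73 ± 0.33 from WT and by 1.93 ± 0.33 from let-7Tg. Without any of the lin28Tg libraries Ccl3 had too few reads to be tested. Against let-7Tg CTLs, where 21.6% of all genes were called, Ccl4 was higher by 2.39 ± 0.34 (adjusted p = 0.00175).

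Ccl5 had the highest group mean of the 7 in CTLs of each genotype, at 6.31, 5.48 and 7.95 FPKM in WT, 32.4, 6.17 and 17.2 in lin28Tg and 15.1, 13.0 and 9.36 in let-7Tg. It varied more among lin28Tg libraries than in the other groups, and did not pass against WT (1.22 ± 0.47, adjusted p = 0.196) or let-7Tg (0.41 ± 0.47, adjusted p = 0.583). Without lin28Tg replicate 2 the difference from WT was 1.82 (adjusted p = 0.0291). Let-7Tg against WT gave 0 of these 3 in limma, none at an unadjusted p under 0.05 and none by voom, with 0.929% of all genes called, although each let-7Tg library was above each WT library for Ccl5 (0.81 ± 0.47, adjusted p = 0.568).

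The remaining chemokines were near 0 in CTLs. Xcl1 had 5, 5 and 0 reads in WT, 3, 33 and 10 in lin28Tg and 1, 2 and 4 in let-7Tg. Cxcl10 had 0, 3 and 8 reads in WT, 1, 1 and 2 in lin28Tg and 8, 8 and 12 in let-7Tg. Ccl9 and Ccl1 had at most 4 and 5 reads in lin28Tg libraries and none in the other genotypes.

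At day 5 same-numbered replicates deviated together, and with the replicate number as a block the fit called 1754 genes in place of 566 for lin28Tg against WT, 4732 in place of 2812 against let-7Tg and 530 in place of 121 for let-7Tg against WT. The call of Ccl4 stood under the block, with an adjusted p of 0.000718 against WT, and Ccl5 was at 0.0824. Myeloid markers did not separate the CTLs, at 31.4 to 61.9 FPKM in WT, 25.9 to 49.6 in lin28Tg and 35.1 to 67.6 in let-7Tg, and C1qa, C1qb, Ms4a7 and Clec7a were at 0 in all 9 libraries. Of 6 tested, 2 were higher in lin28Tg than in WT, Itgax (3.58 ± 1.27 against 0.254 ± 0.201 FPKM) and Itgam (2.23 ± 1.23 against 0.409 ± 0.279), integrins that effector T cells can also carry. NK cell markers summed to 4538 to 6251 FPKM in lin28Tg and 276.8 to 966.5 in WT, with 1 of 5 called, and in lin28Tg most of that sum was Gzma, a granzyme of CTLs (4911 ± 983.5). B cell marker sums were 32.0 to 141.8 FPKM in lin28Tg and 189.7 to 241.4 in WT, stromal sums 3.13 to 7.57 and 12.9 to 18.8, CD4 sums 21.8 to 32.4 and 13.7 to 28.1, and erythroid sums were at most 1.54 in any CTL library. The part of these cells in the day 5 differences was not tested.

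Whether a genotype difference changed with the stage was asked as an interaction in all 27 libraries. From naive cells to 12 h, the lin28Tg difference from WT changed for Ccl1, by 2.24 ± 0.57 (adjusted p = 0.0181), which was 1 of 7 chemokines beside 8.04% of all genes. The Ccl1 call ended with a pseudocount of 0.1 (1.95, adjusted p = 0.159), with voom (1.74, adjusted p = 0.568), without WT 12 h replicate 1 (1.87, adjusted p = 0.0573) and without lin28Tg 12 h replicate 1 (2.01, adjusted p = 0.0524). Naive Ccl1 rested on 8 reads in the 3 WT libraries, 27 in lin28Tg and 1 in let-7Tg. Its naive group means were below the pseudocount of 0.5 FPKM, which pulls the naive difference toward 0. The ratio of mean FPKM, lin28Tg to WT, was 2.48 in naive cells and 7.21 at 12 h. For lin28Tg to let-7Tg it was 21.2 and 9.36, so no growth of the Ccl1 difference is read from these calls. For Ccl5, Ccl9 and Cxcl10, which differed in naive cells, the change was -0.85 ± 0.67, -0.71 ± 0.37 and -0.54 ± 0.82, with adjusted p of 0.535, 0.282 and 0.797. Against let-7Tg, Ccl1 again was the only one of the 7 called (2.40 ± 0.57, adjusted p = 0.00699, 13.3% of all genes), and it was not with a pseudocount of 0.1 (1.47, adjusted p = 0.246) or with voom (0.33, adjusted p = 0.935).

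From 12 h to day 5, the lin28Tg difference from let-7Tg grew for Ccl4 by 2.42 ± 0.66 (adjusted p = 0.0111). Against WT the change of Ccl4 missed the threshold at 2.17 ± 0.66 (adjusted p = 0.0519) but passed with the replicate block (0.0397). Ccl1 and Ccl9 were also called over this interval, which made 3 of 7 against let-7Tg (20.2% of all genes) and 2 of 7 against WT (6.39%). Nothing is read from these calls of Ccl1 and Ccl9, because on day 5 both had 0 reads in every WT and let-7Tg library and 0 to 5 in lin28Tg, so that the pseudocount sets the day 5 difference near 0 and the change repeats the 12 h difference. With voom none of them was called (adjusted p of 0.526 to 0.978). For let-7Tg against WT neither interaction called any of the 7 (0.0761% and 1.49% of all genes), with none and 1 at an unadjusted p under 0.05 and none by voom.

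The ratio of Ccl3 to Ccl4, neighbouring genes that are usually induced together, was examined per library after the values had been seen, and it is given without a test. At 12 h it was 1.29, 1.33 and 1.24 in WT, 1.86, 2.1 and 1.58 in lin28Tg, and 1.04, 0.701 and 0.855 in let-7Tg, with no overlap between the genotypes. In naive cells it ran from 0.215 to 1.12 and on day 5 from 0.0 to 0.431, with overlapping genotypes and few reads behind each value.

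**Figure D5:**
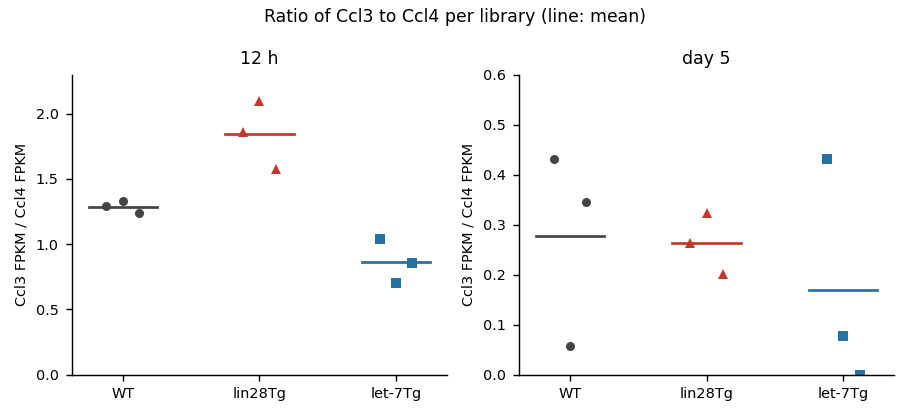
Points show the FPKM of Ccl3 divided by that of Ccl4 in each library at 12 h and on day 5, with a line at the mean of 3 libraries. At 12 h the lin28Tg libraries (1.58 to 2.1) lie above WT (1.24 to 1.33) and let-7Tg (0.701 to 1.04), and on day 5 the genotypes overlap.

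Other chemokine ligands, 31 genes that are not counted above, summed to 207.4 to 409.5 FPKM in naive lin28Tg libraries, 74.1 to 90.6 in WT and 53.8 to 90.1 in let-7Tg. After 12 h the sums were 105.7 to 157.0, 33.5 to 102.8 and 30.2 to 77.9 FPKM. In limma 8 of the 10 with enough reads were called higher in naive lin28Tg than in WT cells. A gene needs reads in only 3 libraries to be tested, so genes near 0 in WT, such as Ccl8 and at 12 h Cxcl2 and Cxcl3, could enter through lin28Tg alone, which favours higher calls. The counts of this and the other lists are therefore a description, beside 34.9% of all genes called in naive cells, 8.48% at 12 h and 4.34% on day 5. Among them were Ccl22, a dendritic cell and T cell chemokine (147.6 ± 34.5 against 48.9 ± 6.64 FPKM), Cxcl16 (31.8 ± 7.29 FPKM in lin28Tg) and the macrophage chemokines Ccl8 (28.2 ± 24.1 against 0.355 ± 0.208) and Ccl6 (39.8 ± 27.9 against 6.0 ± 1.68). After 12 h 3 of 10 were higher, Ccl6, Cxcl2 and Cxcl3, at 4.27 ± 1.17, 1.23 ± 0.28 and 1.32 ± 0.709 FPKM in lin28Tg, and on day 5 none of 2 was called.

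Receptors decide which cells respond to these chemokines. Ccr8, the receptor of Ccl1, was higher in naive lin28Tg than in WT cells, at 3.47 ± 1.34 against 0.556 ± 0.349 FPKM (1.86 ± 0.31, adjusted p = 0.00247 in limma). After 12 h of activation Ccr8 was 3.14 ± 0.105 FPKM in lin28Tg and 0.665 ± 0.426 in WT (1.70 ± 0.29, adjusted p = 0.00698). Cxcr3, the receptor of Cxcl10, was lower in lin28Tg CTLs, at 5.52 ± 2.5 FPKM against 20.8 ± 6.99 in WT (-1.83 ± 0.35, adjusted p = 0.0259). Its direction differed between stages. In naive cells Cxcr3 was higher in lin28Tg, at 92.8 ± 13.3 FPKM against 14.3 ± 8.53 in let-7Tg (2.88 ± 0.57, adjusted p = 0.00324). Against let-7Tg CTLs, at 24.0 ± 4.55 FPKM, it was lower (-2.01 ± 0.35, adjusted p = 0.00439).

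Effector cytokines, which share many inducers with chemokines, were higher in lin28Tg in 5 of 10 at 12 h. Ifng was 1483 ± 178.1 FPKM against 229.8 ± 62.9 in WT (2.70 ± 0.26, adjusted p = 0.000578), and Csf2 and Il3 by 2.91 ± 0.31 and 2.93 ± 0.42. In let-7Tg Ifng was lower than in WT at 12 h, at 91.5 ± 35.3 FPKM (-1.39 ± 0.26, adjusted p = 0.0291), as 1 of 10. Naive lin28Tg cells had 1 of 7 higher and 1 lower, and CTLs 1 of 8 higher (Ifng, 8.01 ± 6.67 against 0.503 ± 0.139 FPKM) and 1 lower (Ltb).

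Of 25 transcription factors of activated CD8 T cells, 7 were higher and 1 lower in lin28Tg than in WT at 12 h, where 8.48% of all genes were called (list median 0.13). Nfkb2 was higher by 0.59 ± 0.09, the AP-1 genes Jund and Jun by 0.56 ± 0.10 and 1.30 ± 0.24, and Tbx21, which encodes T-bet, by 0.83 ± 0.16. Naive cells had 7 higher and 7 lower (34.9% of all genes called) and CTLs 3 lower (4.34%), among them Irf4 and Nfatc1. Against WT, let-7Tg cells at 12 h had Nfatc1 higher by 0.56 ± 0.10 and Jund lower by 0.54 ± 0.10.

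A list of 20 interferon response genes, counted without Cxcl10, had 4 of 19 higher and 1 lower in naive lin28Tg cells (median 0.05), 2 of 18 higher at 12 h and 3 of 16 lower in CTLs, where Gbp2 was 18.8 ± 6.71 FPKM against 48.9 ± 12.7 in WT. Among 8 regulators of mRNA decay, 3 were lower in naive lin28Tg than in WT cells, 1 at 12 h and 1 on day 5, which in naive and 12h-activated cells is near the share of all genes called (34.9% and 8.48%). Zc3h12d, a relative of the RNase that cleaves cytokine mRNAs, was lower at each stage, by 0.63 ± 0.11, 0.87 ± 0.18 and 1.38 ± 0.24 on the log2 scale (adjusted p of 0.00343, 0.0163 and 0.0179).

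Across the 27 libraries the 7 chemokines fell into patterns that can be described by the Pearson correlation of log2(FPKM + 0.5), which is dominated by the difference between stages. Ccl3 was most like Ccl4 (0.992), then Rel (0.987), an NF-kB subunit induced by T cell receptor signals, and Gm20645 (0.987). Ccl4 was next most like Rgs16 (0.985) and Gfod1 (0.983). Xcl1 was most like Plbd2, Utf1 and Ccl3 (0.986, 0.984 and 0.980), and Ccl9 most like Nfkbib (0.979), an inhibitor of NF-kB, Rbpms2 and Trib1. Ccl1 stood closest to Camkv, Wnk2 and Dlc1 (0.962, 0.956 and 0.953).

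Ccl5 and Cxcl10 kept other company. Ccl5 was most like Cacnb3 (0.969), Syk (0.959) and Lgmn (0.957), and its correlation with Ccl3 was 0.01 and with Cxcl10 0.66. Cxcl10 was most like Tnnt2 (0.967) and the activation genes of antigen-presenting cells Cd40 and Cd83 (0.954 each). The order of groups differed accordingly. For Ccl5 it ran from naive lin28Tg (303.0 ± 63.0 FPKM) over naive WT and let-7Tg (80.7 ± 25.2 and 73.8 ± 25.2, overlapping) to the 12h-activated groups and CTLs, with WT CTLs lowest at 6.58 ± 1.26. For Ccl9 the 12h-activated groups led in the order lin28Tg, WT, let-7Tg (105.9 ± 15.9, 40.3 ± 11.3 and 23.6 ± 3.79), followed by naive lin28Tg cells at 7.73 ± 3.47, without overlap between neighbours. For Ccl4 the first 3 places went to let-7Tg, lin28Tg and WT at 12 h (1296 ± 330.4, 1228 ± 225.7 and 1055 ± 530.0), which overlapped.

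In the genome Ccl5, Ccl9, Ccl3 and Ccl4 lie within 138.9 kb of chromosome 11 (GRCm38), with Ccl3 at chr11:83647844-83649355 on the minus strand and Ccl4 at chr11:83662584-83664683 on the plus strand. Ccl1 starts 1.34 Mb away by its GENCODE record (chr11:82176657-82305690, minus strand). Its RefSeq promoter lies at chr11:82179763-82180062, near the other end of that record, so the distance depends on the annotation. Xcl1 is on chromosome 1 and Cxcl10 on chromosome 5. Col1a1, the locus of the let-7 transgene, is on the same chromosome 11.3 Mb from Ccl3. Among the 91 other genes that start within 2 Mb of Ccl3, 44 were tested in naive cells and 34.1% were called in lin28Tg against WT, close to the 34.9% of all genes. The shares were 9.52% of 42 at 12 h and 7.5% of 40 on day 5, beside 8.48% and 4.34% of all genes.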

How the data were processed

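RNA from P14 CD8 T cells (9 groups, 3 biological replicates each, as the labels and methods give them) was sequenced and the authors deposited a table for each of the 3 stages. According to the methods and the submitters' processing notes, the authors aligned reads to GRCm38/mm10 with TopHat2 2.0.9 and Bowtie2 2.0.6, counted them per gene with HTSeq 0.6.1 and deposited FPKM values per library. The annotation release and the strand setting are not given in the sources used here, so a gene and an overlapping gene may share reads. Deposited columns with the authors' group means, fold changes, p-values and clusters were not used. All per-library columns were mapped to samples by name.

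FPKM was scaled by a TMM-type factor (30% of ratios and 5% of levels trimmed), and log2(FPKM + 0.5) was tested with limma 3.58.1 (R 4.3.3) with an intensity trend. P-values were Benjamini-Hochberg adjusted over all genes tested, and a gene was called at an adjusted p under 0.05. The test is two-sided, and fold changes understate low genes because of the pseudocount. Each stage was fitted with its 9 libraries, and stages and interactions with all 27. Genes were tested if their FPKM would give 10 reads in a library of median depth, in 3 or more libraries, and if the libraries of the fit held 15 reads of them together. Whole reads were recovered from FPKM steps for 100.0% of 462839 values (tolerance 0.01), which gave the read counts quoted and a voom alternative. Replicates of a group differed by more than counting noise (mean chi-square 4.4 to 58.1 per gene over 27 pairs), so none was merged. An exact test of 3 against 3 libraries cannot go below p = 0.1. The scripts were tested on simulated data.

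Same-numbered libraries of different genotypes deviated together on day 5 (9 of 9 pairs with a correlation over 0.1, from 0.245 to 0.715), where the replicate block is therefore given beside the results. At 12 h the same held for let-7Tg and WT (3 of 3 pairs, 0.24 to 0.549) but not for pairs with lin28Tg, and in naive cells for no pair of genotypes.

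The 7 genes and all lists were chosen with earlier results of these data known. Up to 4 called genes per list and comparison with the lowest adjusted p could be named, and 3 most like genes per chemokine. The symbol Clec7a belongs to 2 gene IDs. Counts over the list of receptors are not reported here. Promoter and miRNA sequences are from RefSeq and UTRs from GENCODE M21, which holds 34490 of the 35275 gene IDs. Python 3.11.15, numpy 2.4.6, pandas 2.3.3 and matplotlib 3.10.9 were used.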

Additional observations from a re-analysis of the deposited data

Results flagged for a closer look

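For 7 values the lin28Tg difference changed between stages by an interaction test in limma. From naive to 12h-activated cells, the interaction of Ccl1 was 2.24 against WT (adjusted p = 0.0181) and 2.40 against let-7Tg (adjusted p = 0.00699) on the log2 scale. From 12 h to day 5, the Ccl1 difference changed by -2.44 against WT and -2.94 against let-7Tg (adjusted p of 0.0107 and 0.00067). Over the same interval the Ccl9 difference changed by -1.24 against WT and -2.05 against let-7Tg (adjusted p of 0.0446 and 0.000307). The Ccl4 difference from let-7Tg grew by 2.42 between 12 h and day 5 (adjusted p = 0.0111). Ccl1 and Ccl9 had 0 to 5 reads in every day 5 library, so their changes to day 5 repeat the 12 h difference, and with voom none of the Ccl1 and Ccl9 changes was called. The Ccl9 change against WT was also lost in most fits that left out a library (adjusted p of 0.0503 to 0.136 in limma). It was lost as well without a filter (adjusted p = 0.0758) and with a pseudocount of 0.1 (adjusted p = 0.338). Naive Ccl1 rested on 1 to 27 reads per group, with group means below the pseudocount of 0.5 FPKM. No growth of its difference from naive cells to 12 h is therefore read from these values. Groups of 3 libraries were too small for a test of single outlying libraries.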

How the results depend on the processing

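The 153 fold changes of the chemokines were recomputed under scaling, pseudocount, filter, model and leave-one-out alternatives. Of 4478 comparisons with the reported value, 4315 kept direction and side of the threshold, 68 lost the call, 25 gained one, 1 reversed and 69 changed sign without having been called.

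Without a filter, lin28Tg against WT called 1 chemokine at 12 h and 1 on day 5 in place of 2 each, and 1 in place of 2 for the change from 12 h to day 5. On day 5 voom and a fit of the 6 libraries compared also called 1, and the gene lost in each was Ccl3. With a pseudocount of 0.1, and likewise with voom, the change of the lin28Tg difference from naive cells to 12 h called 0 in place of 1 against WT and 0 in place of 1 against let-7Tg, and the change from 12 h to day 5 against WT called 0 in place of 2. Against let-7Tg voom called 1 in place of 3 for that change. The change of Ccl9 from 12 h to day 5 against WT reversed to 0.13 with voom (adjusted p = 0.978). The cause was not tested. Leaving out a library gave 1 to 2 called for lin28Tg against WT at 12 h and on day 5 and against let-7Tg on day 5. It gave 0 to 1 for the change from naive to 12 h against WT and 1 to 3 for that from 12 h to day 5.

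The replicate block moved Xcl1 in naive lin28Tg against let-7Tg out of the calls (1.87, adjusted p = 0.0501) and into them at 12 h (0.83, adjusted p = 0.0344), where the libraries share only a number. Beside Ccl4 from 12 h to day 5 against WT (2.17, adjusted p = 0.0397), it changed no other call of a chemokine.

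Over all genes the counts of calls ranged widely. Lin28Tg against WT called 4629 genes in naive cells (3008 to 4800 over the alternatives), 1038 at 12 h (363 to 1565) and 566 on day 5 (152 to 1754). Let-7Tg against WT called 124 (14 to 132), 396 (5 to 718) and 121 (1 to 574). Lin28Tg against let-7Tg called 3775 at 12 h (2265 to 3878) and 2812 on day 5 (1658 to 4732). The interactions called 1162 (197 to 1522) and 923 (624 to 1556) for lin28Tg against WT, 11 (0 to 41) and 216 (68 to 469) for let-7Tg against WT, and 1923 (858 to 2587) for lin28Tg against let-7Tg from naive to 12 h. On day 5, 4 chemokines had too few reads to be tested. Those libraries held 18438313 to 22647839 counted reads, against 14102910 to 17149842 at 12 h, where all 7 were tested.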
